A study of Mus musculus with 4 samples.

Results

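The genes described are Vegfa, which encodes vascular endothelial growth factor A, its relative Vegfb, and 7 genes of oxygen sensing and of the response to low oxygen (Hif1a, Epas1, Egln1, Egln3, Ero1a, Bnip3 and Ddit4). They were chosen by symbol, with surgery-against-sham results of these data already known, and are 9 of the 32227 genes counted. All 9 were found once each. They were measured by single-cell RNA sequencing in marrow progenitors of 4 surgery and 4 sham replicates. In surgery the femoral artery, the main vessel to a hind limb, was tied off. Mice of both groups were wild type and had been given E0771, an established murine mammary cancer line, 3 days before the operation, so there was no group without tumour cells. Marrow was taken on day 9 after either operation and sorted for cells without lineage markers and with cKit, with or without Sca1, a gate for blood stem and progenitor cells. Strain, sex and age are not in the labels. The labels also leave unsaid whether 1 replicate is 1 mouse, and p-values here reflect only the spread among the 8 replicates. The comparison asks what loss of the limb's blood supply does to marrow progenitors.

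Cells sense oxygen through the prolyl hydroxylases encoded by Egln1 (PHD2) and Egln3 (PHD3). With oxygen present these enzymes mark the alpha subunits of the hypoxia-inducible factors, HIF-1 alpha from Hif1a and HIF-2 alpha from Epas1, for destruction through VHL. When oxygen falls the subunits persist, mostly without a change of their own mRNA, and switch on targets such as Vegfa, Ero1a, Bnip3, Ddit4 and Egln3 itself. Marrow is a low-oxygen tissue, and in mice VEGF-A made by haematopoietic stem cells is known to help their own survival.

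Cells were captured by PIPseq, which isolates cells in templated droplets, in 2 libraries called batch 1 and batch 2 here. Replicates were pooled after their cells had been tagged with a hashtag oligonucleotide. The hashtag names put 2 surgery and 2 sham replicates in each library, whereas another label calls batch 1 ligation and batch 2 sham. Groups were taken from the hashtag names, and every statement on surgery rests on them. The 26880 cells kept held between 1878 and 5872 cells per replicate. Median depth was 6269 to 7206.5 UMIs (unique transcript molecules) per cell in surgery and 5860.5 to 6805.5 in sham replicates of batch 1, and 11425 to 12393.5 in surgery and 10291 to 10721 in sham replicates of batch 2. The libraries shared 5 cell barcodes. Cells were clustered and named from marker genes, giving 10 classes large enough to compare, each name standing for cells like that class, and 6 clusters left without a name. Of these, clusters 10, 11 and 20 matched no marker list. Clusters 0, 17 and 22 matched the lists of neutrophil-granulocyte, HSC and early multipotent, and dendritic cell progenitors, and were left unnamed by their leading genes. Cluster 0 had 8 neutrophil-granulocyte markers up, and its top 10 genes held Fcnb of that list and S100a8 and S100a9 of the mature neutrophil list. Its genes were thus of the neutrophil lineage. Cluster 17 had the erythroid marker Car1 in its top 10, and cluster 22 was led by the B-cell gene Ighd. B cells and T, NK or innate lymphoid cells were among the named classes, although the sort was for lineage-negative cells. The 1432 basophil-mast progenitors had the eosinophil marker Prg2 among their leading genes, so that class may hold eosinophil progenitors. Clustered without the members and pathway genes, 918 of its cells kept the name and a cluster of 675 cells was named eosinophil progenitors.

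Promoter sequences are shown first because several members are textbook targets of HIF, whose binding core is ACGTG or GCGTG. RefSeq promoters on GRCm38.p6 were found for 8 of the 9 members, and the 250 bases before the start site were searched for both cores on either strand, overlapping matches included. Vegfa had no match, Egln3 had 1, Vegfb, Egln1 and Ddit4 had 2 each, Hif1a and Ero1a had 3 each and Bnip3 had 5. Of 32851 mouse promoters of this length, 38.6% held at least 1 match. The absence of a match in Vegfa says only that these letters are not in this window. The known hypoxia response element of Vegfa lies further upstream. The 3 sequences printed are those of Vegfa, whose level differed most between the groups, Ero1a, whose groups were apart in the most classes, and Bnip3, which held the most matches. They run 5′ to 3′ on the gene's strand, which is the minus strand for all 3, with matches in capitals.
Vegfa (chr17:46032378-46032627): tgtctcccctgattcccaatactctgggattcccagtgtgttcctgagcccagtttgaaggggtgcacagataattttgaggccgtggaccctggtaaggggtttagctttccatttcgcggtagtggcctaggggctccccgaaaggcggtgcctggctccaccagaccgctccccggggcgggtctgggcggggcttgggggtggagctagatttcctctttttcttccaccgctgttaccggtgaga
Ero1a (chr14:45318573-45318822): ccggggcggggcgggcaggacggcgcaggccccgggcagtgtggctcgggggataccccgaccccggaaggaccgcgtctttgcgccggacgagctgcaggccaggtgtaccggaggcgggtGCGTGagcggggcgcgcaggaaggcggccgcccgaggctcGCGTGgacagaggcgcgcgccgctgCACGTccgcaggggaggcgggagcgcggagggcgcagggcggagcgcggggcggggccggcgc
Bnip3 (chr7:138909507-138909756): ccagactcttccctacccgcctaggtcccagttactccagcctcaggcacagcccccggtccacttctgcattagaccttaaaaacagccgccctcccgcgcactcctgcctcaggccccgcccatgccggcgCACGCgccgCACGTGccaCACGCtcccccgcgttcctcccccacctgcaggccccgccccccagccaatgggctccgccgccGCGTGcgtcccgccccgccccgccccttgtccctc

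Vegfa lies on chromosome 17 (GRCm38, bases 46016993 to 46032369, minus strand, a protein-coding gene of identifier ENSMUSG00000023951). UMIs were counted per gene, so its splice forms were not told apart. In lymphoid-primed progenitors, the cells with Flt3 and Dntt from which lymphocytes arise, Vegfa was at 40.1 and 42.8 CPM (the gene's summed UMIs scaled to the total UMIs of the replicate's cells of that class) in the batch 1 surgery replicates and 26.8 and 41.5 CPM in those of batch 2, against 22.8 and 15.9 CPM in the batch 1 sham replicates and 19.9 and 15.96 CPM in those of batch 2. These CPM rest on 20 to 61 UMIs of Vegfa per surgery replicate and 12 to 33 per sham replicate. All 4 surgery replicates lay above all 4 sham replicates, and this held within each batch. The means were 37.8 ± 7.45 CPM after surgery and 18.6 ± 3.34 CPM after sham (SD, n = 4 each). The log2 fold change was 1.10 ± 0.19 (SE). Since Vegfa was chosen with this difference known, it is given as a description. By edgeR's adjusted p under 0.05, 1 of the 8 members tested was called higher in this class and none lower, where 0.289% of the 9676 genes tested were called higher and 0.0207% lower. Of the genes tested, 1.34% had all surgery replicates above all sham replicates, as Vegfa did, and 1.38% all below. The call was lost with DESeq2 (1.07), with cells gated 1 by 1 on markers (0.91), and without sham replicate 2 of batch 1 or surgery replicate 2 of batch 2 (0.97 each).

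The share of lymphoid-primed cells with a Vegfa UMI was read after thinning each cell to 2000 UMIs, with shallower cells left out. A Vegfa UMI was found in 9.31% ± 3.95 of cells after surgery and 3.88% ± 2.22 after sham (SD, n = 4 each; 495 and 681 cells). The lowest surgery replicate, at 4.41%, was under the highest sham replicate, at 6.49%. Thinned to 4000 UMIs, the shares were 15.1% ± 3.12 after surgery and 8.31% ± 2.30 after sham, and without thinning 21.8% ± 3.72 after surgery and 11.2% ± 2.17 after sham. Cells with a UMI held 1.10 UMIs on average after surgery and 1.0 after sham at a depth of 2000. Erythroid progenitors, in which Vegfa was close to absent, had 0.402% ± 0.280 after surgery and 0.246% ± 0.318 after sham at the same depth, from cells whose full medians were 15501 UMIs after surgery and 15727 after sham. In lymphoid-primed cells the full medians were 6985 UMIs after surgery and 6707.5 after sham.

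**Figure D1:**
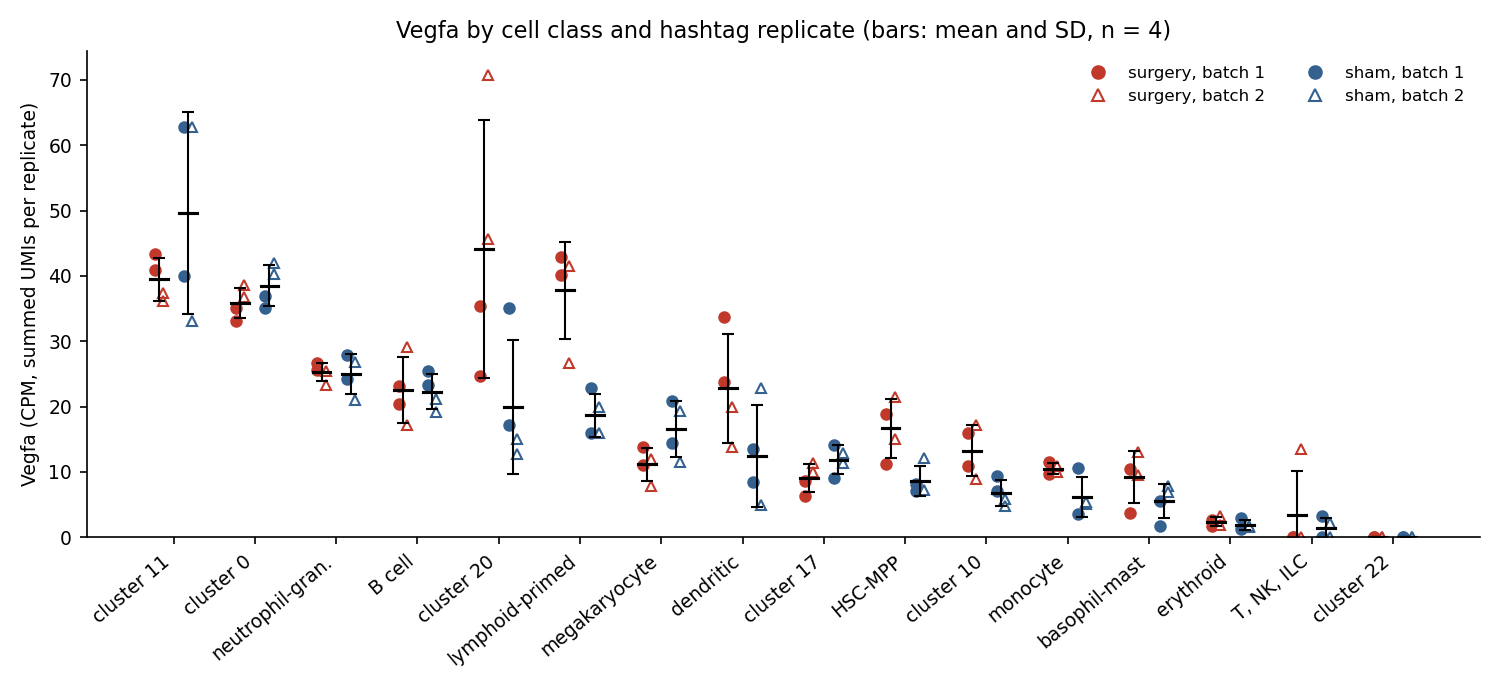
Vegfa in CPM of summed UMIs (vertical axis) for each hashtag replicate, by cell class along the horizontal axis in order of the sham mean. Surgery replicates are red and left of the blue sham replicates, circles are batch 1 and triangles batch 2, and black bars are the mean and SD of 4 replicates. In lymphoid-primed progenitors the red points lie between 26.8 and 42.8 CPM and the blue ones between 15.9 and 22.8.

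In HSC and early multipotent progenitors and in monocyte progenitors the means of Vegfa were higher after surgery, and neither passed the threshold. In HSC and early multipotent progenitors Vegfa was at 18.9, 11.2, 21.4 and 15.1 CPM in surgery replicates, against 8.12, 7.06, 7.24 and 12.1 CPM in sham replicates (batch 1 pair first in each group). Only the lowest surgery replicate overlapped the highest sham replicate, and the groups were apart within each batch. The log2 fold change was 0.89 ± 0.25. In monocyte progenitors Vegfa was at 9.72, 11.5, 10.01 and 10.9 CPM in surgery replicates, against 10.6, 3.62, 5.10 and 5.33 CPM in sham replicates, a log2 fold change of 0.94 ± 0.21. Sham replicate 1 of batch 1 stood with the surgery replicates there. Without it the log2 fold change was 1.22 ± 0.15 and passed the threshold, and without sham replicate 2 of batch 1 it was 0.68 ± 0.19. The background of genes called higher was 0.125% of 10436 genes in HSC and early multipotent progenitors and 0.0609% of 13132 genes in monocyte progenitors. Both clusters of monocyte progenitors, taken alone, gave log2 fold changes of 1.05 ± 0.23 and 0.84 ± 0.23.

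Cluster 10, led by Cd34 and histone genes and not named by any marker list, had Vegfa at 15.99, 10.99, 17.1 and 8.92 CPM in surgery replicates, against 7.11, 9.32, 5.93 and 4.74 CPM in sham replicates, a log2 fold change of 0.91 ± 0.28. The groups overlapped by 1 replicate each. Basophil-mast progenitors had 9.22 ± 3.95 CPM after surgery and 5.55 ± 2.67 after sham (0.65 ± 0.37), and dendritic cell progenitors 22.8 ± 8.38 CPM after surgery and 12.4 ± 7.79 after sham (0.73 ± 0.44). In both the replicates of the groups were mixed. Cluster 20, a shallow cluster with 78.9% of its cells from batch 1, had 44.1 ± 19.7 CPM after surgery and 19.98 ± 10.2 after sham, and Vegfa did not pass the count filter.

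In the larger classes with the most Vegfa in sham marrow its group means were close. Neutrophil-granulocyte progenitors, the precursors of neutrophils with Elane and Prtn3, had 25.2 ± 1.39 CPM after surgery and 25.0 ± 3.07 after sham (log2 fold change 0.02 ± 0.10). Cluster 0, led by S100a8, had 35.9 ± 2.32 CPM after surgery and 38.5 ± 3.13 after sham (-0.09 ± 0.08). B cells had 22.5 ± 5.04 CPM after surgery and 22.3 ± 2.70 after sham (-0.02 ± 0.19). Megakaryocyte progenitors were the named class with Vegfa lowest relative to sham, at 13.8, 11.02, 12.0 and 7.87 CPM in surgery replicates, against 20.9, 14.4, 19.3 and 11.6 CPM in sham replicates (-0.54 ± 0.28). Cluster 17 had -0.41 ± 0.34 and cluster 11 had -0.25 ± 0.30. In all, the log2 fold change of Vegfa was above 0 in 8 and below 0 in 5 of the 13 comparisons in which it passed the filter on low counts. Over all cells it was 18.9 ± 2.06 CPM after surgery and 15.4 ± 2.60 after sham (0.32 ± 0.12), where 0 of 8 members and 0.0348% of genes were called higher and 0.0058% lower. In such a sum a different mix of cells and a different amount per cell cannot be told apart.

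The surgery effect on Vegfa in lymphoid-primed progenitors was set against that in each other class in 1 model with the replicate as a term. The log2 effect was larger in lymphoid-primed progenitors by 1.64 ± 0.33 (SE) than in megakaryocyte progenitors, by 1.22 ± 0.22 than in cluster 0 and by 1.08 ± 0.21 than in neutrophil-granulocyte progenitors. Against B cells the difference was 1.11 ± 0.28, against HSC and early multipotent progenitors 0.25 ± 0.33, against monocyte progenitors 0.13 ± 0.25 and against cluster 10 it was 0.23 ± 0.35. The last 3 differences were smaller than their standard errors. So were those against dendritic cell progenitors (0.36 ± 0.46), cluster 20 (0.10 ± 0.47) and T, NK or innate lymphoid cells (-0.05 ± 0.60). Against basophil-mast progenitors the difference was 0.44 ± 0.42 and against erythroid progenitors 0.73 ± 0.47. Against cluster 17 it was 1.52 ± 0.39 and against cluster 11 it was 1.33 ± 0.36. No SE was obtained against cluster 22, which had no Vegfa UMI.

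**Figure D2:**
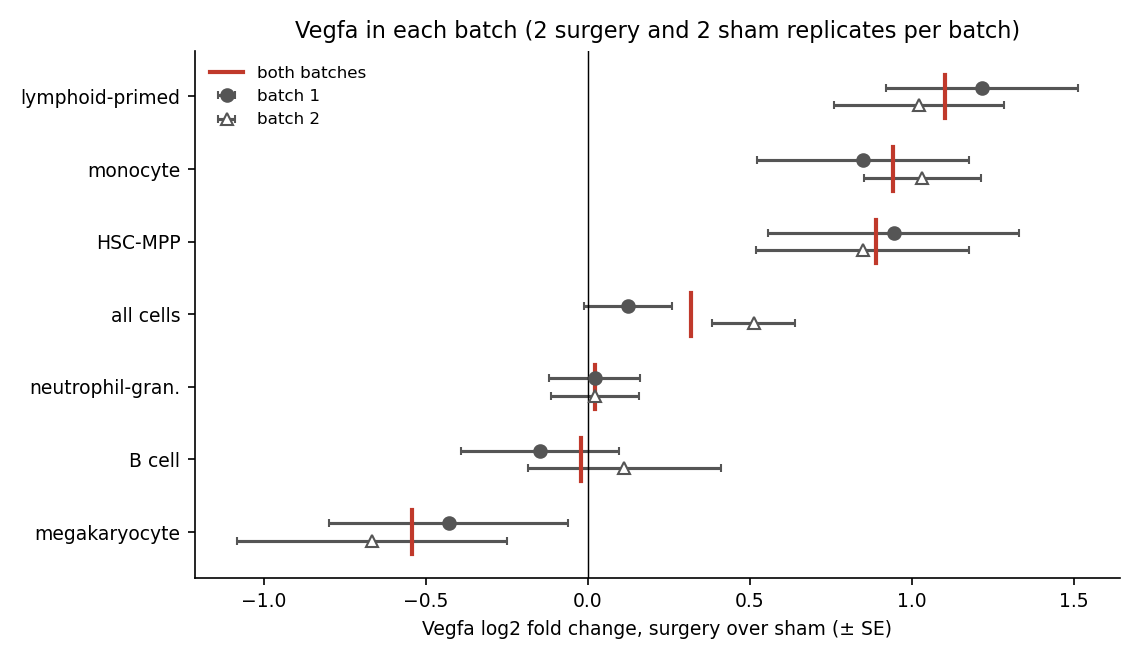
Log2 fold change of Vegfa, surgery over sham, with its SE (horizontal axis) in batch 1 (filled circles) and batch 2 (open triangles), for each class in which both batches passed the count filter; red bars are the fits of both batches. Lymphoid-primed progenitors had 1.22 ± 0.30 in batch 1 and 1.02 ± 0.26 in batch 2.

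Each batch was also fitted alone. In lymphoid-primed progenitors the log2 fold change was 1.22 ± 0.30 in batch 1 and 1.02 ± 0.26 in batch 2. In monocyte progenitors it was 0.85 ± 0.33 in batch 1 and 1.03 ± 0.18 in batch 2, and in HSC and early multipotent progenitors 0.94 ± 0.39 in batch 1 and 0.85 ± 0.33 in batch 2. Over all cells it was 0.12 ± 0.14 in batch 1 and 0.51 ± 0.13 in batch 2. The difference of the surgery effect between the batches was tested by edgeR for each member and class, and 0 of 111 tests passed (lowest adjusted p 0.663).

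Markers were read beside the Vegfa result in lymphoid-primed progenitors. Of the lymphoid-primed markers, 1 of 5 tested was called higher after surgery (Dntt), and their summed level was 1901 to 2353 CPM in surgery replicates and 1745 to 2143 CPM in sham replicates. Of the 8 monocyte markers 1 was called lower (Ms4a6c), at a summed 952 to 1497 CPM in surgery and 1415 to 1689 CPM in sham replicates. Of the basophil-mast markers 1 of 2 tested was called higher (Mcpt8), at 33.7 to 230.1 CPM in surgery and 32.3 to 45.3 CPM in sham replicates, with Cma1 at 0. The part of these shifts in the Vegfa result was not tested. Macrophage markers summed to 5.35 to 8.84 CPM in surgery and 0 to 10.9 CPM in sham replicates, and epithelial or tumour markers to 8.03 to 19.0 CPM in surgery and 5.70 to 28.7 CPM in sham replicates. Dendritic cell markers summed to 148 to 216 CPM in surgery and 152 to 165 CPM in sham replicates, with Klk1 and Xcr1 at 0. Among the cells of this class without a UMI of Siglech, a plasmacytoid dendritic marker, the log2 fold change of Vegfa was 1.09 ± 0.21.

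In sham marrow the level of Vegfa was highest in cluster 11, a shallow cluster (49.6 ± 15.4 CPM), cluster 0 (38.5 ± 3.13 CPM) and neutrophil-granulocyte progenitors (25.0 ± 3.07 CPM). It was lowest in erythroid progenitors (1.92 ± 0.745 CPM), T, NK or innate lymphoid cells (1.37 ± 1.65 CPM) and cluster 22, led by the B-cell gene Ighd, with 0 of 272 cells, which allows a share of up to 1.1% of cells with a UMI by counting alone. Only cluster 0 and neutrophil-granulocyte progenitors, among neighbours in the order, had sham ranges that did not overlap. Lymphoid-primed progenitors, at 18.6 CPM, stood below cluster 20 and above megakaryocyte progenitors, and their sham range overlapped both. Their 37.8 CPM after surgery was close to the 35.9 CPM of cluster 0 after surgery, and the replicate ranges overlapped.

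**Figure D3:**
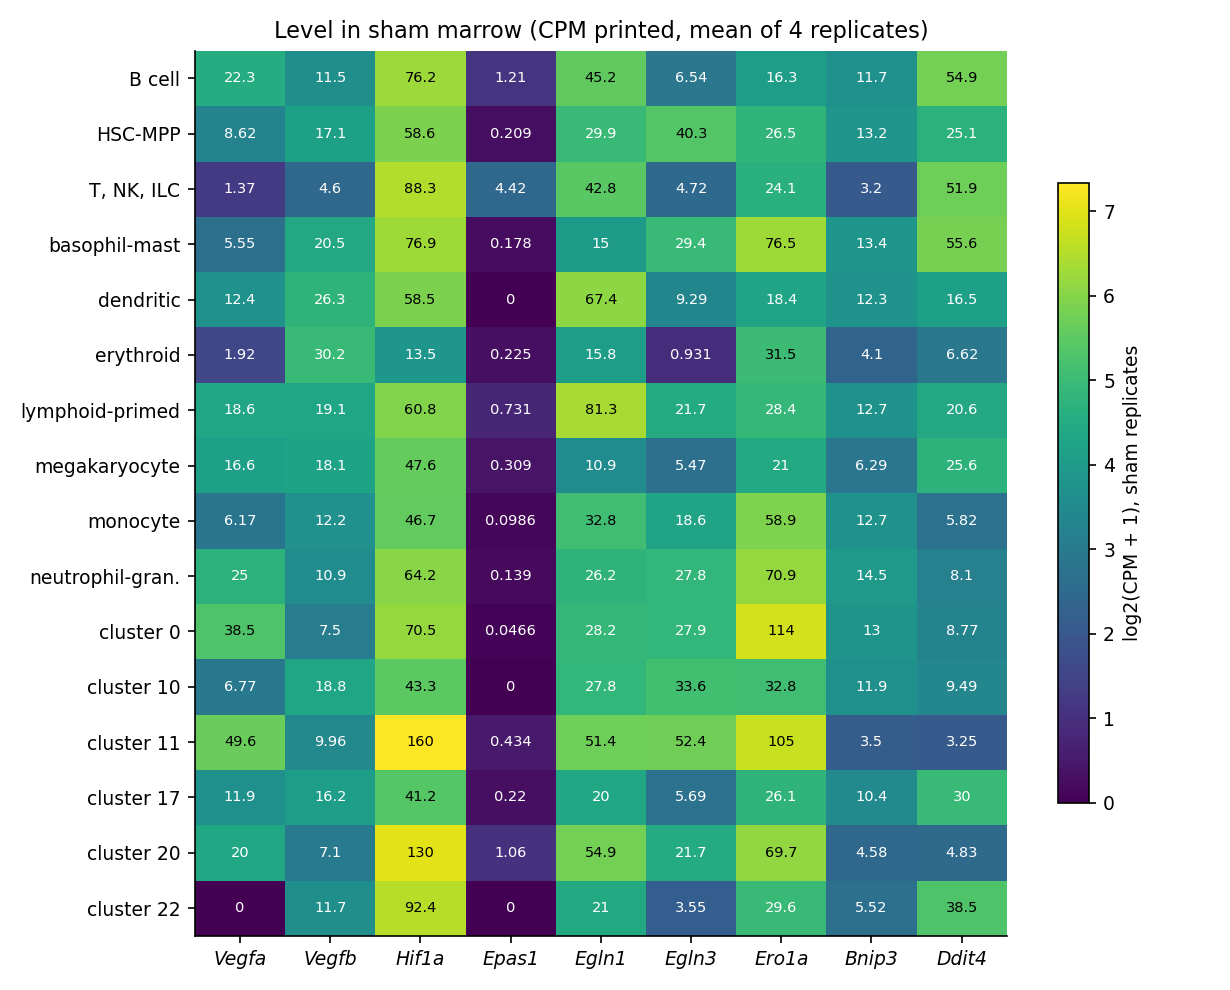
Mean CPM of each member in the 4 sham replicates (printed) for each class, shaded by log2(CPM + 1); columns are genes, rows are classes, and shades are to be read within a column. Vegfa and Hif1a are both low in erythroid progenitors, at 1.92 and 13.5 CPM, Ero1a is lowest in B cells at 16.3 CPM, Vegfb is highest in erythroid progenitors at 30.2 CPM and Egln1 in lymphoid-primed progenitors at 81.3 CPM.

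The genes most like Vegfa were sought over 128 sums, those of 16 classes in 8 replicates, which share libraries and depth. Among 7431 genes of at least 20 CPM, Kif17, a kinesin motor, had the highest Pearson r of log2(CPM + 1) with Vegfa, at 0.805. Phactr2 followed with 0.799, Ctdspl with 0.782, Lrp8, a lipoprotein receptor, with 0.782 and Sort1, the sorting receptor sortilin, with 0.773. Among the members themselves the nearest to Vegfa was Egln3, with an r of 0.612, followed by Egln1 with 0.365 and Ero1a with 0.349. Ddit4 ran the other way, with an r of -0.329.

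Vegfb encodes a ligand of the receptor Flt1 and lies on chromosome 19 (bases 6982473 to 6987651). It was not called in any comparison. In lymphoid-primed progenitors it was at 14.2, 14.6, 16.1 and 20.4 CPM in surgery replicates, against 15.2, 15.3, 21.7 and 24.2 CPM in sham replicates (log2 fold change -0.20 ± 0.22). Each surgery replicate lay below the sham replicates of its batch, but the groups overlapped. In cluster 17, which was left unnamed, all 4 surgery replicates were below the sham replicates, at 12.4 to 14.5 CPM against 14.7 to 19.5 CPM, and the log2 fold change was -0.22 ± 0.28. Among genes tested in cluster 17, 1.09% had the surgery replicates all below the sham replicates. Its sham level was highest in erythroid progenitors, at 30.2 ± 3.26 CPM, in which Vegfa was close to its lowest.

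Hif1a had 15464 UMIs in all and was tested in every comparison but cluster 22, where it had 45 UMIs, and no comparison called it. Hif1a lies on chromosome 12 (bases 73901375 to 73947530) and overlaps Gm15283 on the opposite strand, which had 313 UMIs. The labels do not state whether strand was used in counting, so reads of that pair may have been exchanged. In lymphoid-primed progenitors Hif1a was at 72.5, 58.3, 36.1 and 52.3 CPM in surgery replicates, against 53.2, 64.9, 59.8 and 65.5 CPM in sham replicates (-0.19 ± 0.15). The groups were mixed. In B cells it was at 83.2, 84.1, 111.6 and 84.6 CPM in surgery replicates, against 72.0, 81.6, 77.1 and 74.0 CPM in sham replicates (0.24 ± 0.12). In T, NK or innate lymphoid cells it was at 110.4, 110.9, 115.5 and 107.8 CPM in surgery replicates, against 60.0, 105.5, 81.0 and 106.5 CPM in sham replicates (0.28 ± 0.22), from 11 to 28 UMIs per surgery replicate and 7 to 38 per sham replicate. In these 2 classes all surgery replicates were above all sham replicates. That pattern held for 0.933% of genes tested in B cells and 1.01% in T, NK or innate lymphoid cells. Within sham marrow Hif1a was lowest in erythroid progenitors, at 13.5 ± 1.92 CPM, and the next class up, cluster 17, did not overlap it. The genes most like Hif1a over the 128 sums were Gmip, with an r of 0.897, Fndc3a with 0.896 and Arhgap15 with 0.890.

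Epas1 was close to absent. It lies on chromosome 17 (bases 86753700 to 86833410), and 66 UMIs were found in all 26880 cells, 26 in surgery and 40 in sham replicates. It passed the count filter in no comparison. Over all cells it was at 0.211 ± 0.0479 CPM after surgery and 0.253 ± 0.0424 CPM after sham. It was listed at 0 in dendritic cell progenitors of both groups, and the highest sham mean, 4.42 ± 4.32 CPM in T, NK or innate lymphoid cells, rested on 6 UMIs. The highest r of any gene with Epas1 was 0.428, for Lef1, and at such counts it is no finding.

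Egln1 and Egln3, the oxygen sensors, were not called in any comparison. Egln1 lies on chromosome 8 (bases 124908587 to 124949324). Its sham level was highest in lymphoid-primed progenitors, at 81.3 ± 6.68 CPM, next to dendritic cell progenitors at 67.4 ± 20.5 CPM. In lymphoid-primed progenitors it was at 86.8, 91.1, 80.3 and 68.0 CPM in surgery replicates, against 91.1, 79.6, 77.3 and 77.0 CPM in sham replicates. The groups overlapped, and the log2 fold change was 0.01 ± 0.12. Egln1 was lowest in megakaryocyte progenitors, at 10.9 ± 2.08 CPM after sham, where the log2 fold change was 0.02 ± 0.28.

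Egln3 lies on chromosome 12 (bases 54178981 to 54203860). In sham marrow it was high in HSC and early multipotent progenitors, at 40.3 ± 3.71 CPM, and in cluster 11, and close to absent in erythroid progenitors, at 0.931 ± 0.586 CPM. In HSC and early multipotent progenitors it was at 40.6, 49.4, 44.7 and 44.7 CPM in surgery replicates, against 34.8, 42.4, 41.2 and 42.7 CPM in sham replicates (0.14 ± 0.13). The largest log2 fold change of Egln3, 0.73 ± 0.43, was in megakaryocyte progenitors, from 8.64 ± 2.10 CPM after surgery and 5.47 ± 2.94 after sham, and its groups overlapped. In lymphoid-primed progenitors it was -0.17 ± 0.22.

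**Figure D4:**
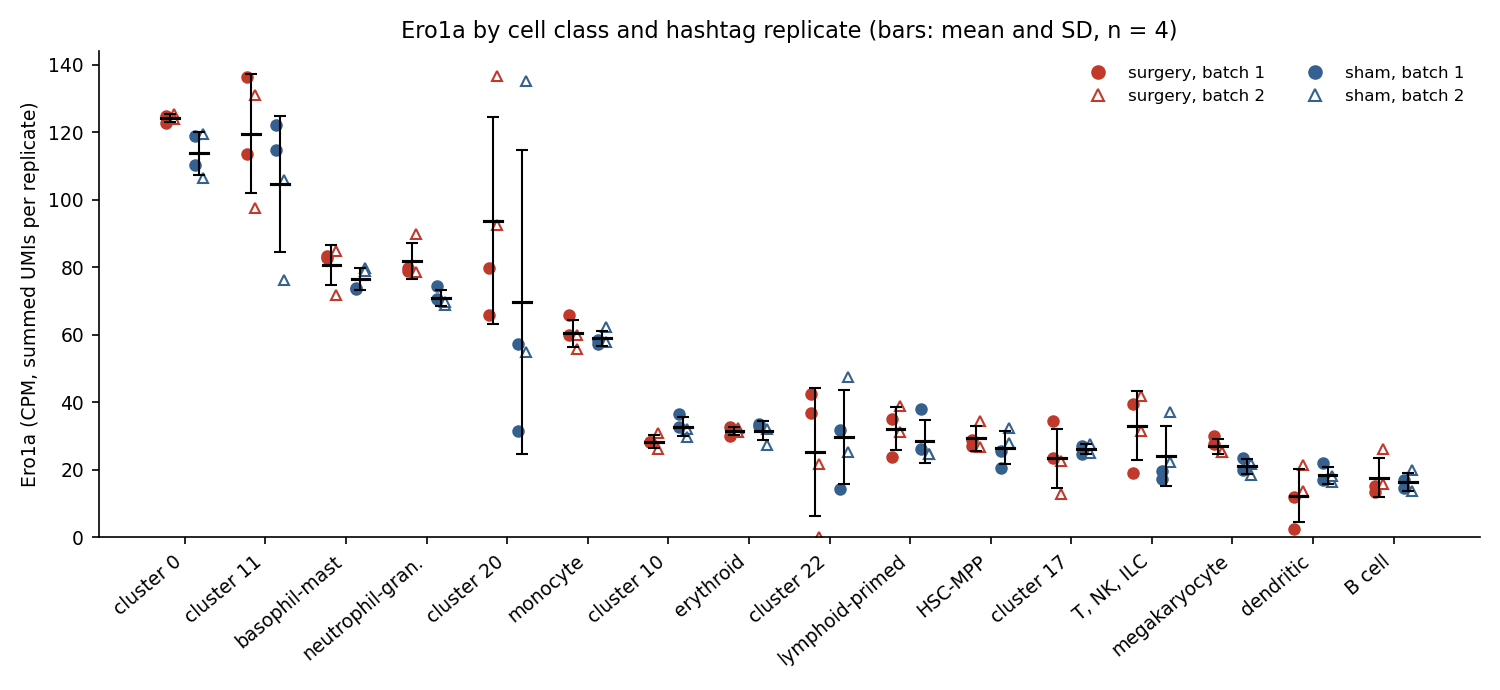
Ero1a in CPM of summed UMIs (vertical axis) for each hashtag replicate, by cell class in order of the sham mean; surgery replicates are red and left of the blue sham replicates, circles are batch 1 and triangles batch 2, and bars are the mean and SD of 4 replicates. In cluster 0 the surgery replicates lie between 122.8 and 125.5 CPM and the sham replicates between 106.4 and 119.4.

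Ero1a encodes the thiol oxidase that drives disulfide bond formation in the endoplasmic reticulum, and lies on chromosome 14 (bases 45283087 to 45318771). Its groups were apart in 3 classes. In neutrophil-granulocyte progenitors it was at 78.8, 79.9, 89.8 and 78.7 CPM in surgery replicates, against 74.5, 70.6, 68.9 and 69.6 CPM in sham replicates, a log2 fold change of 0.22 ± 0.06. In cluster 0 it was at 124.7, 122.8, 125.5 and 124.0 CPM in surgery replicates, against 119.0, 110.4, 106.4 and 119.4 CPM in sham replicates (0.15 ± 0.05). In megakaryocyte progenitors it was at 27.6, 29.9, 25.2 and 25.2 CPM in surgery replicates, against 23.6, 19.96, 18.5 and 21.8 CPM in sham replicates (0.39 ± 0.18). All surgery replicates lay above all sham replicates in each of these. Surgery replicates were all above sham replicates for 1.04% of genes tested in neutrophil-granulocyte progenitors, 1.05% in cluster 0 and 1.32% in megakaryocyte progenitors. None passed the threshold, the lowest adjusted p being 0.492 by edgeR, in neutrophil-granulocyte progenitors, where 0.0663% of 12071 genes were called higher. Markers of mature neutrophils summed to 3976 to 6800 CPM in those surgery replicates and 3400 to 7497 CPM in the sham replicates. In lymphoid-primed progenitors Ero1a was at 35.0, 23.7, 38.8 and 31.3 CPM in surgery replicates, against 38.0, 26.1, 24.8 and 24.8 CPM in sham replicates (0.25 ± 0.19), and the groups were mixed. Over all cells it was 63.8 ± 6.31 CPM after surgery and 56.6 ± 2.58 after sham (0.19 ± 0.07).

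Bnip3 encodes a receptor on the outer mitochondrial membrane for the removal of mitochondria by autophagy. It lies on chromosome 7 (bases 138890836 to 138909519) and overlaps Gm45507 on the opposite strand, which had 37 UMIs against 3225 of Bnip3. In sham marrow it was between 10.4 and 14.5 CPM in 10 of 16 classes. The groups overlapped in every comparison in which it was tested. In lymphoid-primed progenitors it was at 19.4, 10.03, 4.01 and 12.2 CPM in surgery replicates, against 11.4, 7.64, 10.9 and 20.9 CPM in sham replicates (-0.16 ± 0.35). In HSC and early multipotent progenitors it was 15.5 ± 2.96 CPM after surgery and 13.2 ± 1.82 after sham (0.23 ± 0.22). The largest value, 0.54 ± 0.36, was in megakaryocyte progenitors, at 9.33 ± 2.66 CPM after surgery and 6.29 ± 3.14 after sham.

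Ddit4 encodes REDD1, an inhibitor of the growth kinase complex mTORC1, and lies on chromosome 10 (bases 59949669 to 59951834). In lymphoid-primed progenitors it was at 22.01, 38.3, 16.1 and 27.9 CPM in surgery replicates, against 22.8, 21.6, 18.7 and 19.3 CPM in sham replicates (0.40 ± 0.21). The surgery replicates lay on both sides of the sham replicates. In B cells it was 44.1 ± 4.59 CPM after surgery and 54.9 ± 9.90 after sham (-0.29 ± 0.15), and in monocyte progenitors 4.603 ± 1.01 CPM after surgery and 5.82 ± 0.905 after sham (-0.29 ± 0.17). In sham marrow its level was highest in basophil-mast progenitors (55.6 ± 15.1 CPM), B cells (54.9 CPM) and T, NK or innate lymphoid cells (51.9 ± 17.3 CPM). These 3 overlapped. It was 5.82 CPM in monocyte progenitors. The genes most like Ddit4 were Ptprcap, with an r of 0.746, Gimap1 with 0.734 and Txnip with 0.710.

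**Figure D5:**
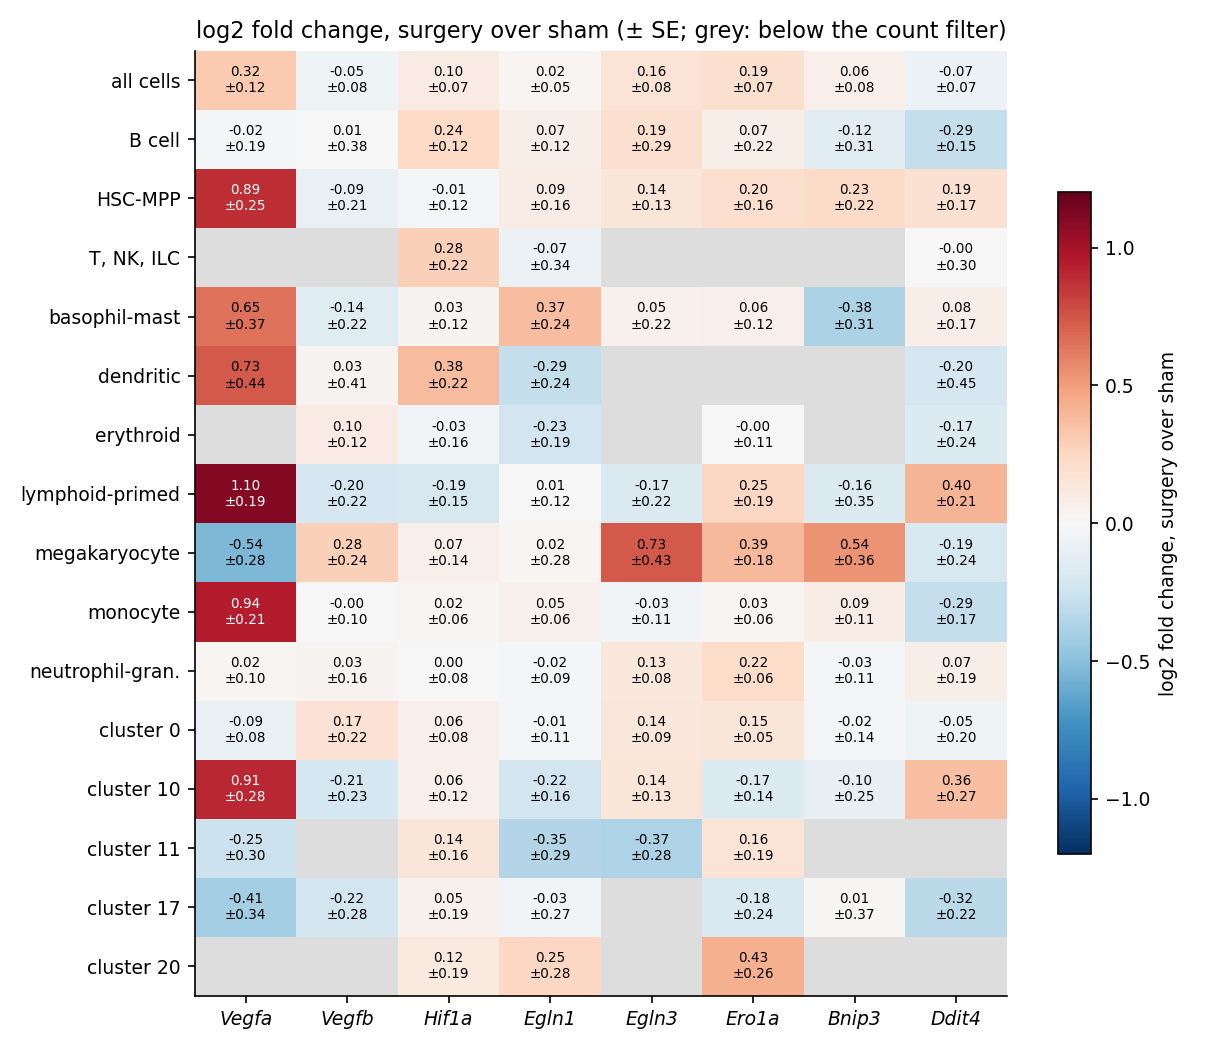
Log2 fold change, surgery over sham, with its SE, for each member (columns) and comparison (rows); red is higher after surgery, blue lower, and grey cells did not pass the count filter. Vegfa in lymphoid-primed progenitors, at 1.10 ± 0.19, is the 1 member and class past the threshold.

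Set side by side, the members did not move as a block. In 16 of the 17 comparisons at least 1 member was tested, and there were 108 tests of members in all. Of these 1 was called higher, that of Vegfa in lymphoid-primed progenitors, and 0 lower, where over the 17 comparisons 0.0489% of all gene tests were called higher and 0.00444% lower. For the members other than Vegfa, 0 of 95 tests passed in edgeR, and 4 had an unadjusted p under 0.05. All 4 were of Ero1a, in cluster 0, megakaryocyte and neutrophil-granulocyte progenitors, and all cells, which include those classes. Such a p was found for 529 of 11187 genes in cluster 0 and 401 of 9794 in megakaryocyte progenitors. It was found for 571 of 12071 in neutrophil-granulocyte progenitors and 776 of 17238 over all cells, so 4 of 95 is near the share of all genes. DESeq2 called 0 of these members, with 2 unadjusted. In lymphoid-primed progenitors 4 of the 8 members had values above 0 and 4 below, with a median log2 fold change of -0.08 beside 0.00 over all genes. In HSC and early multipotent progenitors it was 6 above and 2 below, with a median of 0.16 beside 0.00. Surgery replicates lay all above sham replicates in 6 of the 108 tests and all below in 1, where 1.05% and 1.1% of all gene tests did so.

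The other genes of these pathways were read from 6 lists that, like the members, were chosen with results known. Of 10 other HIF pathway components, among them Arnt, Vhl and Hif1an, 9 were tested in lymphoid-primed progenitors and 0 were called, with 5 above and 4 below 0 and a median of 0.01. Of 26 other HIF targets, which include the glucose transporter Slc2a1 and the glycolytic genes Pgk1 and Ldha, 18 were tested and 0 called, with 7 above and 11 below 0 and a median of -0.05. Of 8 other VEGF ligands and receptors, only 2 had enough counts there. In the same class 0 of 9 tested mTORC1 regulators and 0 of 10 mitophagy genes were called, with medians of -0.01 and -0.10. Over all cells 0 of 23 tested HIF targets were called and their median was -0.01.

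The list of the integrated stress response and endoplasmic reticulum stress held the 1 gene outside the members that was called. Ern1 encodes IRE1 alpha, a sensor of unfolded protein in the endoplasmic reticulum. It was higher after surgery in lymphoid-primed progenitors (0.82 ± 0.11) and in HSC and early multipotent progenitors (0.71 ± 0.07). Since the list was chosen with results known, these values and the counts below are descriptions. In lymphoid-primed progenitors 1 of the 9 tested genes of that list was thus called, where 0.289% of all genes tested were called higher, with 5 above and 4 below 0 and a median of 0.06. The count was 1 of 10 in HSC and early multipotent progenitors, where 0.125% of all genes were called higher. The list had no common direction over the classes. Its median ran between -0.17 in cluster 17, with 2 genes above and 8 below 0, and 0.28 in dendritic cell progenitors, with 7 above and 2 below. In neutrophil-granulocyte progenitors 10 were above and 0 below 0, with a median of 0.11 and 0 called. In B cells 1 was above and 8 were below 0, with a median of -0.05 and 0 called.

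The shares of cells with a UMI of each member, thinned to 2000 UMIs per cell, were also read by a two-sided exact permutation test within batch. Its smallest possible p, which 2 of the 36 splits give, is 0.0556, so no share could pass and nothing is read from the test. Of 153 member and class pairs 8 reached that p, in both directions. By chance alone about 2 in 36 pairs would reach it, and 8 of 153 is near that share. The lowest adjusted p of this permutation test was 0.895, so the pairs are listed only as descriptions. Higher after surgery was Ero1a in megakaryocyte progenitors (6.08% of cells after surgery and 3.60% after sham). So was Egln1 in monocyte progenitors (7.93% after surgery and 5.75% after sham). In dendritic cell progenitors Hif1a (14.7% after surgery and 9.32% after sham) and Vegfb (4.33% after surgery and 0.993% after sham) were higher. The log2 fold changes of summed UMIs were 0.39 ± 0.18, 0.05 ± 0.06, 0.38 ± 0.22 and 0.03 ± 0.41 in that order. The mean CPM of Vegfb there went the other way, at 21.3 ± 4.55 after surgery and 26.3 ± 18.1 after sham. Sham replicate 1 of batch 1 had only 18 dendritic cell progenitors of that depth. Lower after surgery was Ero1a in B cells (3.14% after surgery and 3.93% after sham). So were Ddit4 in erythroid progenitors (0.244% after surgery and 1.48% after sham) and Egln3 in cluster 0 (5.71% after surgery and 6.62% after sham). The log2 fold changes of summed UMIs were 0.07 ± 0.22, -0.17 ± 0.24 and 0.14 ± 0.09 in that order, so Ero1a and Egln3 pointed the other way. Hif1a in cluster 22 was also lower (9.21% after surgery and 23.3% after sham). Those shares rest on only 2 to 13 cells per surgery replicate and 3 to 25 per sham replicate.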

How the data were processed

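The authors deposited raw UMI counts, 1 matrix per library, without normalisation. Hashtag lines of the same matrices (22.2% of counts in batch 1, 16.1% in batch 2) were kept out of totals and tests. Cell Ranger and GRCm38 are named in the submitters' processing notes, with no version and nothing on strand. The 9 members, the gene lists and the tests were chosen with earlier results of these data known.

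Barcodes with at least 500 genes, 1000 UMIs and at most 10% mitochondrial UMIs passed (batch 1: 17065 of 18094 barcodes; batch 2: 13568 of 14179). A barcode was given to a replicate when exactly 1 hashtag had 200 counts or more (86.0% and 90.4%). Scrublet, run per library, called 0.592% and 0.671% as doublets, which were removed; of barcodes with several hashtags it marked 9.80% and 16.5%, so doublets within 1 hashtag can remain. Clustering used scaling to 10000, 2000 variable genes, centring within library, 30 components, 15 neighbours and Leiden resolution 1.0 (scanpy 1.11.5, igraph 0.11.9, Python 3.11.15). A cluster was named by the marker list with the highest mean log2 fold if at least 3 of its genes reached a log2 fold of 1; a cluster with more genes of another list than of its own among its top 10 stayed unnamed, as did cluster 22, led by Ighd, by a choice made after its genes were seen.

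UMIs were summed per replicate and class (at least 10 cells in every replicate) and tested by edgeR 4.0.16 quasi-likelihood (R 4.3.3; filterByExpr, TMM, batch as a term, Benjamini-Hochberg over all genes). CPM carry no TMM factor. The text names all 9 members, and genes of a list where they passed. Most-alike genes are the 5 of highest r for Vegfa and 3 for Hif1a, Epas1 and Ddit4. DESeq2 1.42.0, other scaling, filters, hashtag minimums, a per-cell marker gate, thinning and leaving out each replicate were tried. The fits were tested on simulated counts, with changes given only to genes of at least 20 CPM, so rarer genes were not covered. Changes of log2 size 1 were recovered in 98% of cases in HSC and early multipotent and 93% in lymphoid-primed progenitors. Over all cells the share was 100%. Changes of size 0.5 were recovered in 54%, 54% and 96% in that order, so changes of that size can go uncalled in a class. Gene spans are from GENCODE on GRCm38.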

Additional observations from a re-analysis of the deposited data

Results flagged for a closer look

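Flagged were 3 differences of the log2 surgery effect on Vegfa, each lymphoid-primed progenitors minus another group of cells. They were 1.64 ± 0.33 against megakaryocyte progenitors, 1.22 ± 0.22 against cluster 0 and 1.08 ± 0.21 against neutrophil-granulocyte progenitors. Vegfa was chosen with its effect in lymphoid-primed progenitors known, so these are descriptions and no test is read from them.

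A single replicate lay far from the other 3 of its group, by Dixon's criterion at the 95% level, in 10 of 154 groups checked. Chance flags about 1 in 20 groups. Surgery replicate 1 of batch 2, which had the fewest cells, was that replicate in 5 of them. It had Vegfa at 21.96 CPM over all cells, against 17.7 to 18.0 in the other surgery replicates, and at 26.8 CPM in lymphoid-primed progenitors, against 40.1 to 42.8. It had Hif1a at 111.6 CPM in B cells (others 83.2 to 84.6), Egln1 at 13.1 CPM in basophil-mast progenitors (others 19.8 to 21.2) and Ero1a at 89.8 CPM in neutrophil-granulocyte progenitors (others 78.7 to 79.9). Surgery replicate 2 of batch 2 had Ero1a at 71.8 CPM in basophil-mast progenitors (others 82.7 to 84.8), Egln3 at 5.51 CPM in megakaryocyte progenitors (others 9.44 to 10.03) and Vegfb at 13.2 CPM in monocyte progenitors (others 11.4 to 11.5). Sham replicate 1 of batch 1 had Ero1a at 38.0 CPM in lymphoid-primed progenitors (others 24.8 to 26.1) and Ddit4 at 7.17 CPM in monocyte progenitors (others 5.26 to 5.49).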

How the results depend on the processing

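The log2 fold change of Vegfa in lymphoid-primed progenitors was 0.91 to 1.53 over 22 alternatives and past the threshold in 16 of them. It was not past it with DESeq2 (1.07), the per-cell marker gate (0.91), batch 1 alone (1.22) or batch 2 alone (1.02), nor without sham replicate 2 of batch 1 (0.97) or surgery replicate 2 of batch 2 (0.97), and the number of members past the threshold there was then 0. Leaving out each replicate gave 0.97 to 1.21 and 0 to 1 members. In monocyte progenitors it passed with batch 2 alone (1.03) and without the count filter (0.93), which gave 1 member; leaving out each replicate gave 0.68 to 1.22 and 0 to 1 members, and it passed without sham replicate 1 of batch 1. In HSC and early multipotent progenitors it was 0.62 to 1.09 and over all cells 0.12 to 0.51, past the threshold in none. The cause of these changes was not tested. Single batches hold 2 replicates per group. The class drawn by the gate held 700 cells, of which 412 were among the 1268 cells of the class as clustered. Clustered with doublets kept, the class held 669 cells and the value was 1.16. Of 1637 alternative fold changes over all members, 187 had the other sign, 0 of them among the 66 of Vegfa in lymphoid-primed, HSC and early multipotent and monocyte progenitors and cluster 10, and no value past the threshold changed sign. Same-numbered surgery and sham replicates of a batch did not deviate together (r of 0.005 and -0.016 over 17238 genes). With the replicate number as a replicate block Vegfa had 1.08 in lymphoid-primed progenitors and 0.92 in monocyte progenitors, and no call changed. Low counts limit Epas1, and Vegfa in T, NK or innate lymphoid, erythroid and cluster 20 and 22 cells. Erythroid progenitors were deeply read, with medians of 15501 UMIs after surgery and 15727 after sham, and Vegfa was close to absent there.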
